A study of Mus musculus with 5 samples.

Results

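The integrins and laminins of the mouse were followed through 5 single-cell RNA libraries of developing penis and embryonic limb. The members were all genes whose symbol in the gene lists is Itga or Itgb with digits and an optional letter, together with Itgae, Itgal, Itgam, Itgav and Itgax, and Lama, Lamb or Lamc with a digit. This gave 37 of 32285 genes: 17 integrin α chains, 9 integrin β chains and 11 laminin chains. The rule itself uses gene symbols and no measured value, but the members were chosen with earlier results of these data known.

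The study asked how the forming penis bone differs from forming limb bones, and for that it profiled penises of C57BL/6N males at postnatal day 6 and limbs at embryonic day 15. The strain is that of the labels, and the study's methods write C57BL/6J. There were 3 penis libraries, for which the methods count 3 males of 2 litters with the prepuce removed. Neither the labels nor the methods say whether each penis library holds 1 male. The n of a penis value therefore counts libraries, and its spread may not be that between animals. Forelimb and hindlimb had 1 library each from male embryos, of which the methods count 6. Whether embryos were pooled is not stated, and both limb libraries may come from the same embryos. The labels name no transgene and no treatment. Tissue and age change together between penis and limb and cannot be told apart in any comparison between them.

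An integrin is a receptor of 1 α and 1 β chain that ties a cell to the matrix around it or, on white blood cells, to other cells. A laminin is a cross-shaped trimer of an α, a β and a γ chain, the founding protein of basement membranes, the thin sheets under epithelia and around vessels, nerves and muscle fibres. Cells that sit on such sheets are known to hold laminin-binding integrins such as the Itga6 and Itgb4 pair of hemidesmosomes, the anchoring plaques of basal epithelial cells.

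Cells were put into types by counting detected markers, none of which is an integrin or laminin. After filtering, 6788, 7085 and 5708 penis cells, 22057 forelimb cells and 20514 hindlimb cells remained, with a median of 5358 to 9909 UMIs per cell. Levels are UMIs of a gene per 1000000 UMIs (CPM), summed over the cells of a type in a library. Penis values are given in the order of libraries 1, 2 and 3, and limb values as forelimb, then hindlimb. Pairs of libraries shared 20 to 203 barcodes. Over all cells the integrins summed to 1022 to 1106 CPM in penis and 887 to 904 CPM in limb, and the laminins to 792 to 853 CPM and 461 to 530 CPM. The 1756 mixed and 22469 unassigned cells, of 62152 kept, were left out of the types. Unassigned cells were 29.8% to 30.8% of each penis library, 39.4% of forelimb and 38.2% of hindlimb. Their median was 6086 to 7100.5 UMIs in penis and 3755 and 4481 in limb. Mesenchyme cells had 9332 to 10486 and 5911 and 6557.5.

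All 37 members have coordinates on the GRCm38 build, and 34 overlap no other annotated gene on their own strand. Lamb3 (chr1:193207699-193343878) shares bases on its strand with 4930570N18Rik, Itga6 (chr2:71745616-71858416) with Gm13662 and Gm13663, and Itga1 (chr13:114953096-115101964) with Pelo. Reads in the shared stretches could have been assigned to either gene or dropped. UMIs tag the 3′ end of transcripts, so levels are compared for one gene between cell types, not between genes.

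One pair of neighbours is given in more detail. Itgam and Itgax, the α chains of complement receptors that pair with Itgb2 on myeloid cells, lie next to each other on chromosome 7, Itgam at chr7:128062640-128118491 and Itgax at chr7:128129547-128150657. Both were highest in macrophages among the cell types with at least 20 cells per library, and both were higher in limb than in penis mesenchyme. Itgam was also counted across other limb types. The 150 bases before each start (RefSeq, GRCm38.p6, + strand) follow, from chr7:128062490-128062639 and chr7:128129400-128129549. Capitals mark a match to the letters GAGGAAG, a core bound by the myeloid factor PU.1, in Itgam, and to TGANTCA, the AP-1 core, in Itgax:
Itgam: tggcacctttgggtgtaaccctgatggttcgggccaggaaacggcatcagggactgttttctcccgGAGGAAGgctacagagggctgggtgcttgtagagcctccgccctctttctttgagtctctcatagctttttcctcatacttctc
Itgax: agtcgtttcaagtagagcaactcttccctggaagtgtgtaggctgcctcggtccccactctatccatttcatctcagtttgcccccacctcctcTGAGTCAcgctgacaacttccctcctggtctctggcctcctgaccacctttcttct
Both motifs were searched on both strands of the windows from 250 bases before to 50 bases after each start. Promoter windows were at hand for 24 of the 37 members (27 windows). GAGGAAG occurred in 9 of the 27, and in 13.6% of all 32851 mouse windows. TGANTCA occurred in 3, in Itga3, Itga9 and Itgax, and in 7.81% of all windows. A match describes letters only.

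Members differed in how widely they were counted over the cell types. The map of levels shows Itgb1, the β chain shared by most α chains, in every type. In penis its mean ran from 79.0 CPM in lymphoid cells to 813 ± 35.4 CPM in blood endothelium (mean ± SD, n = 3). Itgav, the α chain of receptors for fibronectin and vitronectin, was likewise above 10 CPM in every type with at least 20 cells per library. At the other end, Itgb2l was at 0 in all these types apart from limb mast cells (mean 1.05 CPM) and was tested nowhere. Its UMIs lay in neutrophils, of which each library had only 9 to 18 cells, at 40.1, 231 and 279 CPM in penis and 8.20 and 163 CPM in limb. Itga2b, the platelet α chain, had nearly equal penis means in basal epithelium, at 11.5 ± 2.49 CPM, and in mesenchyme, at 11.4 ± 0.41 CPM (n = 3). Platelet-forming cells were too few to be summed.

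**Figure D1:**
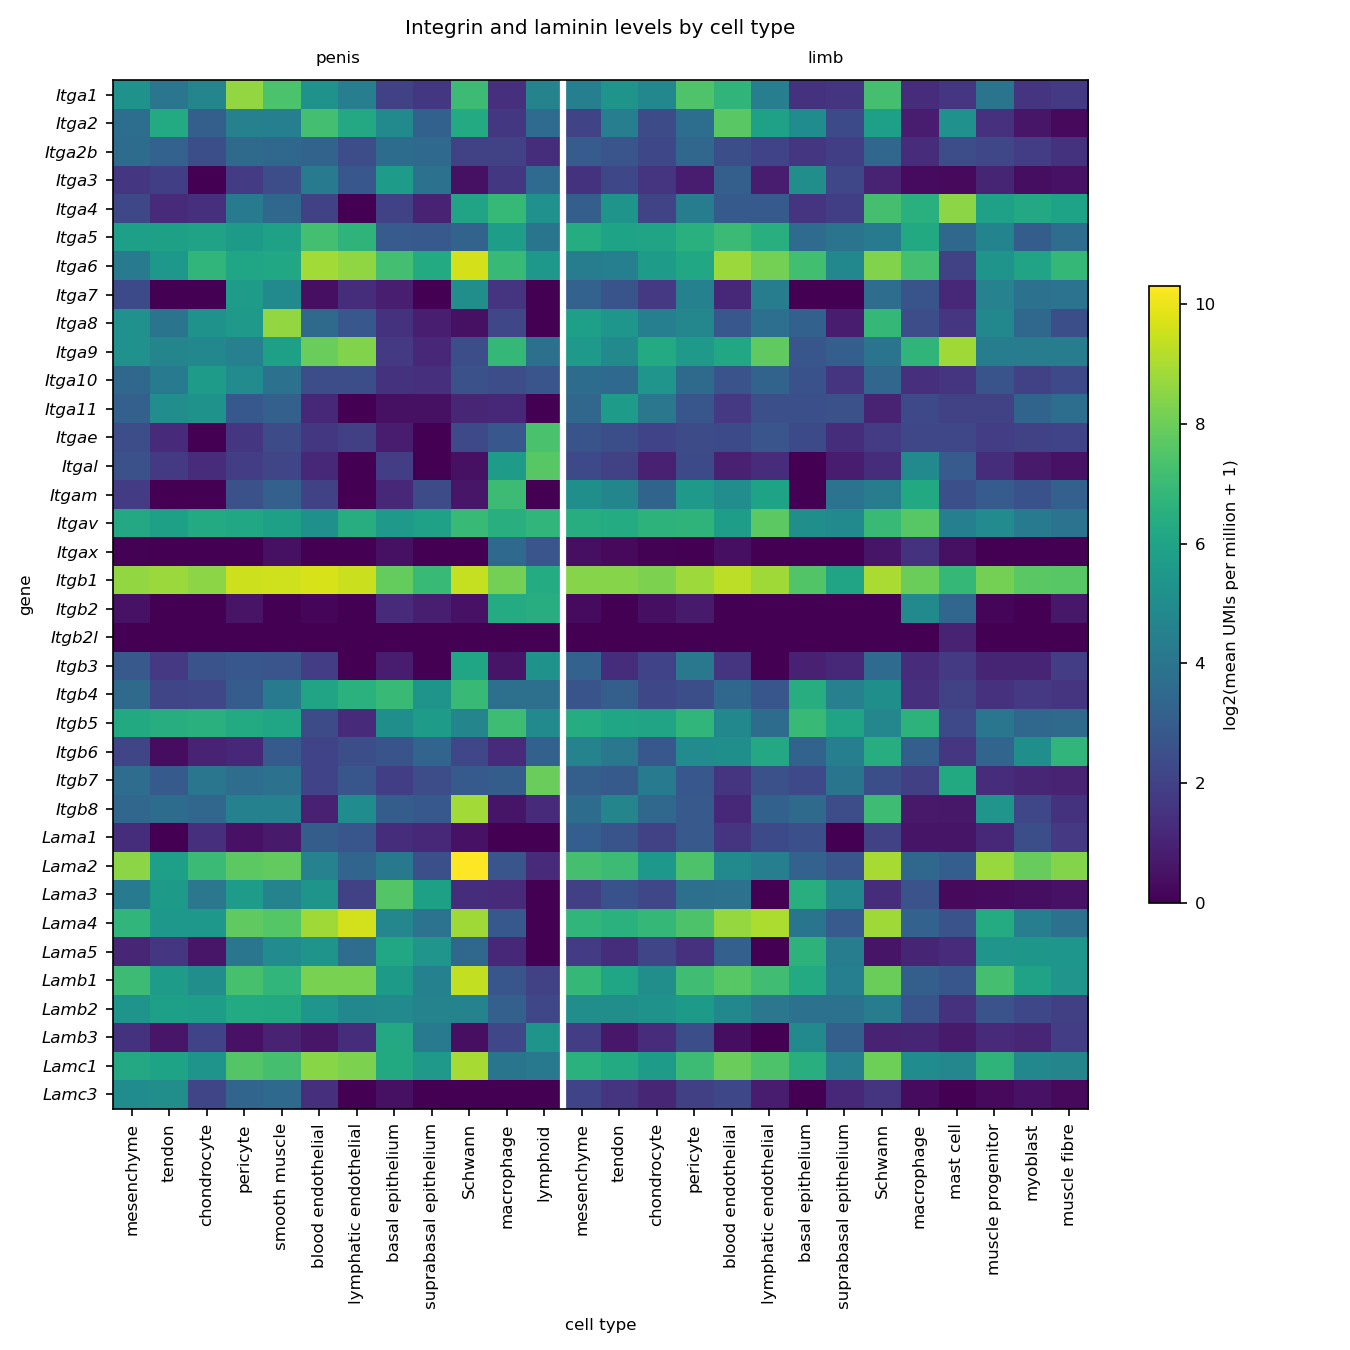
Mean level of 36 members (rows) in each cell type (columns) of penis and limb, as log2(CPM + 1) on a colour scale. Types have at least 20 cells in each library averaged, which leaves penis 1 out of the lymphatic column. Members gather in a few types, with Itga6, Itgb8, Lamb1 and Lama2 high in Schwann cells, Lama3 and Lamb3 in basal epithelium and Itgb2 in leukocytes.

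Basal epithelium, the layer that rests on the basement membrane, held chains of the epithelial laminin and their receptors. Lama3 stood at 169, 177 and 212 CPM in the penis libraries and 99.5 and 78.2 CPM in the limb libraries, against 16.9, 16.8 and 20.1 CPM and 3.01 and 2.73 CPM in mesenchyme. Lamb3 had 69.2, 64.1 and 86.6 CPM and 33.2 and 25.4 CPM in basal cells. Every basal library was above every mesenchyme library for both chains. Relative to mesenchyme, with libraries as blocks, Lama3 was higher by 4.05 ± 0.26 on the log2 scale (± SE, adjusted p = 3.50e-06), and Lamb3 by 4.86 ± 0.38 (adjusted p = 1.11e-05). Lama5, the α chain of most mature epithelial membranes, differed most among the higher members, with 64.1, 64.7 and 83.6 CPM in penis and 119.7 and 78.2 CPM in limb against at most 2.80 CPM in mesenchyme (log2 change 5.81 ± 0.21, adjusted p = 1.47e-07). The receptor chains followed: Itga6 was at 161, 135 and 155 CPM and 114 and 176 CPM (log2 change 3.11 ± 0.14, adjusted p = 4.90e-07), and Itgb4 at 122, 118 and 138 CPM and 79.2 and 90.9 CPM (log2 change 3.85 ± 0.12, adjusted p = 6.17e-08). Itga3, which with Itgb1 binds the same laminins, differed by 4.57 ± 0.25, and Itga2, a collagen receptor chain, by 2.01 ± 0.36. In all, 8 of 34 tested members were above mesenchyme, against 7.73% of all genes called higher.

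Below mesenchyme in basal cells were 12 of 34 members, against 15.3% of all genes. Lama2, the α chain of muscle and nerve membranes, had a log2 change of -4.20 ± 0.17, Itga8 one of -3.57 ± 0.35, Itga9 of -3.52 ± 0.30 and Itga1, a collagen receptor chain, of -3.42 ± 0.25. Itgb3, Itga5 (the fibronectin receptor chain), Itga7, Itga11, Lama4, Itga10 and Itgb7 were also lower, by log2 values between -1.65 and -3.16. Of these, Itga7 had 2, 1 and 1 UMIs in penis basal cells and 0 and 0 in limb. Itgb3 had 0, 0 and 3 UMIs and 1 and 0. Lamc3 had 2 UMIs in all basal cells against 3471 UMIs in mesenchyme, a ratio of 48.2 (exact 95% interval 13.3 to 399). The interval covers counting error only, and the ratio pools tissues with unlike mesenchyme means, 31.1 CPM in penis and 3.21 CPM in limb. Both basal UMIs were in penis 2. Limb basal cells had 0 UMIs, at floors of 5.53 and 6.34 CPM that lie above limb mesenchyme, so a limb difference could not be seen. Itgb1 did not pass the limits, with 232 ± 11.2 CPM in penis basal cells (n = 3). The median log2 change of the 34 tested members was -0.71, beside -0.12 over all genes tested. 16 of the 20 calls held without each library in turn. Itga11 lost its call without any 1 penis library or the hindlimb (log2 change -2.60 to -2.17, adjusted p = 0.0122 to 0.0341), Itga7 without penis 2 or 3 (log2 change -2.79 to -2.68, adjusted p = 0.0156 to 0.0193) and Itgb3 without penis 1 or 2 (log2 change -2.76 to -2.73, adjusted p = 0.014 to 0.0141). Itgb7 lost it too without any 1 penis library (log2 change -1.73 to -1.35, adjusted p = 0.0162 to 0.0198).

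Partners of the membrane differed from mesenchyme in both directions in basal cells, where 7.73% of all genes were higher and 15.3% lower. Of the 4 hemidesmosome partners, 3 were higher than in mesenchyme: Col17a1, the transmembrane collagen of the plaque, by 6.36, the tetraspanin Cd151 by 2.18 and the plakin Dst by 1.04 on the log2 scale. Among other laminin receptors 3 of 10 were higher and 3 lower, led by Bcam, an immunoglobulin-family receptor for laminin α5, at 6.47. Fermt1, the epithelial kindlin that activates integrins, was higher by 8.90, the only higher one of 21 adaptors tested, while 5 were lower. Of 16 basement membrane partners 7 were higher, with Frem2 at 4.58 and Fras1 at 3.90, and 6 lower, with the linker Nid1 at -4.62. The list of other integrin ligands had 1 of 15 higher, Cdh1, the ligand of the Itgae and Itgb7 pair, and 8 lower.

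Within the epithelium 7 members, among them Itga3 and Itgb4, were higher in the basal layer than in the layers above it. Suprabasal cells, which have left the membrane, had Itga3 at 6.97, 8.62 and 25.2 CPM in penis and 2.46 and 4.71 CPM in limb, and Itgb4 at 32.5, 40.6 and 43.2 CPM and 17.2 and 25.1 CPM. The suprabasal range of Itgb4 lay wholly below the basal one, and that of Itga3 overlapped it by 1 library, the third penis suprabasal library lying above the forelimb basal one. Basal exceeded suprabasal cells for 7 of 15 tested members, against 3.97% of all genes. By edgeR 0 were lower, against 5.51% of all genes, and 0 were lower at an unadjusted p under 0.05 or by DESeq2. The 7 were Itga3 (log2 change 2.12 ± 0.31, adjusted p = 0.00113), Itga2 (2.06 ± 0.33), Lamb3 (1.96 ± 0.35), Itgb4 (1.67 ± 0.15), Lama3 (1.56 ± 0.15), Lamb1 (1.25 ± 0.21) and Lama5 (1.13 ± 0.25). Itga6, the partner of Itgb4, had a log2 change of 1.30 ± 0.31 and missed the limits (adjusted p = 0.0141). Basement membrane partners were higher in basal cells for 8 of 10 tested, among them Frem2 (2.77) and Agrn (1.92), as were Col17a1 (2.02) and Dst (1.48) of the 4 hemidesmosome genes. Between them, 3 of the 7 calls held without each library in turn. Lamb3 lost its call without penis 3 (log2 change 2.07, adjusted p = 0.0166), Lama5 without any 1 penis library or either limb (log2 change 0.93 to 1.36, adjusted p = 0.0118 to 0.0294) and Lamb1 without penis 3 (log2 change 1.20, adjusted p = 0.0137). Itga2 lost it too without penis 2 (log2 change 1.85, adjusted p = 0.0104).

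**Figure D2:**
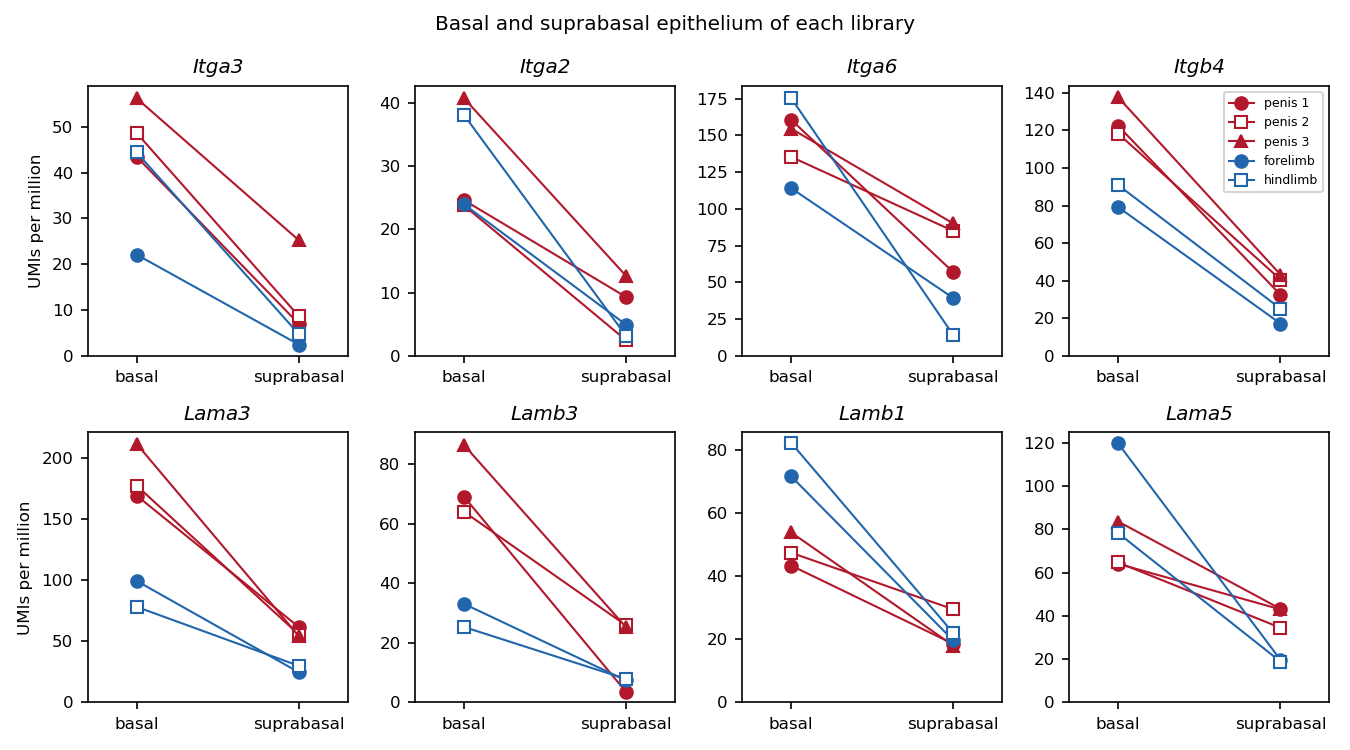
Level in UMIs per 1000000 (CPM, linear axis from 0) of 8 members in basal and suprabasal epithelium, with 1 point per library and a line joining the points of a library. The 5 basal points of Itgb4 lie between 79.2 and 138 CPM and the 5 suprabasal points between 17.2 and 43.2 CPM.

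Blood endothelium, the lining of vessels, held laminin receptor chains and the vascular laminin chains above mesenchyme. Itga6 was at 466, 443 and 508 CPM in penis and 448 and 421 CPM in limb, against 18.0 to 19.7 CPM in mesenchyme (log2 change 4.64 ± 0.09, adjusted p = 2.70e-07). Itga2 was at 156, 131 and 152 CPM and 200.4 and 206 CPM, a log2 change of 4.53 ± 0.50 (adjusted p = 2.61e-04). The vascular laminin α chain Lama4 stood at 452, 428 and 479 CPM and 375 and 428 CPM against 103 to 115 CPM in mesenchyme (log2 change 2.04 ± 0.08, adjusted p = 2.32e-06). No endothelial library overlapped a mesenchyme library for these 3 chains. The chains that complete the vascular trimer were also higher, Lamc1 by 1.97 ± 0.20 and Lamb1 by 1.06 ± 0.12. The mature vascular α chain Lama5 differed by 3.97 ± 0.68, Itga3 by 2.74 ± 0.26, Itgb4 by 2.10 ± 0.32, Lama3 by 1.45 ± 0.29 and Itgb1 by 1.01 ± 0.06. Itga9, a chain for tenascin and for vascular adhesion molecules, differed by 2.02 ± 0.43 and Itga5 by 1.16 ± 0.17. In all, 13 of 34 members were higher, against 9.55% of all genes.

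Another 10 of 34 were lower in endothelium than in mesenchyme, against 15.9% of all genes. Lama2 differed by -3.36 ± 0.36, Itgb8 by -3.31 ± 0.43, Itga7 by -3.11 ± 0.40 and Itgb5, a partner of Itgav, by -2.88 ± 0.50. No endothelial library had more than 5 UMIs of Itgb8 or 2 of Itga7. Lamb3, the epithelial β chain, was at 0.442 CPM on average over 5 libraries, a log2 change from mesenchyme of -2.04 ± 0.43, while Lama3 was above it. Itga11, Itga8, Itgal, Itgb7 and Itgb3 made up the rest. The members' median was 0.05 beside -0.09 over all genes. In the same cells the collagen IV chains Col4a1 and Col4a2 were higher by 2.93 and 2.89, with 6 of 16 basement membrane partners higher and 6 lower. The integrin ligand Icam2 was higher by 8.53 and the laminin receptors Bcam and Mcam by 4.40 and 4.09. The summed epithelium markers were 48.9 to 123 CPM in penis endothelium and 33.0 to 35.9 CPM in limb endothelium, and their part in the levels of Itgb4 and Lama3 was not tested. 17 of 23 calls held without each library. Lamb3 lost its call without any 1 penis library or the forelimb (log2 change -2.25 to -1.88, adjusted p = 0.0166 to 0.0246), Lama5 without any 1 penis library (log2 change 3.63 to 3.67, adjusted p = 0.0113 to 0.0128) and Itga9 without any 1 penis library (log2 change 1.78 to 1.85, adjusted p = 0.023 to 0.0257). Itgb3 lost it too without penis 2 or 3 (log2 change -1.49, adjusted p = 0.0104 to 0.0112), Itgb5 without penis 1 or 2 (log2 change -2.71 to -2.60, adjusted p = 0.0109 to 0.0135) and Lama3 without penis 1 or 3 or the forelimb (log2 change 1.44 to 1.53, adjusted p = 0.0115 to 0.0191).

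Lymphatic endothelium differed from blood endothelium in 3 of 18 tested members. Itgav was at 65.2 and 102 CPM in penis 2 and 3 and at 229 and 182 CPM in limb, against 31.1 to 62.8 CPM in the 5 blood endothelial libraries (log2 change 1.67 ± 0.22, adjusted p = 4.06e-04). It was the 1 member higher, against 2.99% of all genes, and 2 were lower, against 2.15% of all genes. These were the collagen receptor chains Itga1 (-1.85 ± 0.31) and Itga2 (-1.42 ± 0.28). Penis 1 had 15 lymphatic cells and did not enter this fit, and its Itgav level was 49.4 CPM. Without the library block edgeR called 0 members here. Itga2 lost its call without penis 3 or either limb (log2 change -1.39 to -1.16, adjusted p = 0.0295 to 0.041) and Itga1 without either limb (log2 change -1.58 to -1.55, adjusted p = 0.0159 to 0.0346).

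Pericytes, which wrap vessels, and smooth muscle cells both had the collagen receptor chain Itga1 and the laminin receptor chains Itga6 and Itga7 above mesenchyme. The smooth muscle gate does not separate cells of vessel walls from other smooth muscle. Itga1 was at 313, 403 and 472 CPM in penis pericytes and 146 and 208 CPM in limb pericytes, against 15.1 to 43.9 CPM in mesenchyme (log2 change 3.24 ± 0.17, adjusted p = 1.49e-06). Itga7, a laminin receptor chain of muscle, was at 39.1, 61.2 and 47.3 CPM and 14.4 and 29.3 CPM (log2 change 2.65 ± 0.41, adjusted p = 0.00263). Both chains were higher in each pericyte library than in any mesenchyme library. Itga6 (1.84 ± 0.13), Itga4 (1.81 ± 0.26) and Lama3 (1.69 ± 0.23) completed the 5 of 34 members higher, against 1.51% of all genes, while edgeR called 0 lower, against 0.671% of all genes. At an unadjusted p under 0.05 there were 2 lower members, and DESeq2 called 0. The median of the members was 0.22 beside -0.06 over all genes. Their partners Col4a1, Col4a2 and Col18a1 were higher by 2.03, 1.92 and 2.09, and the Itgav ligand Vtn by 3.51. Endothelial markers summed to 184 to 249 CPM in penis pericytes and 268 to 275 CPM in limb pericytes, and their part in the Itga6 level was not tested. Itga4 lost its call without penis 2 (log2 change 1.67, adjusted p = 0.0111), Itga7 without any 1 penis library (log2 change 2.31 to 2.44, adjusted p = 0.0113 to 0.0169) and Lama3 without penis 2 (log2 change 1.62, adjusted p = 0.0133).

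Penis smooth muscle had one chain at a level that no other type reached. Itga8, which with Itgb1 binds nephronectin, was at 321, 501 and 366 CPM in penis smooth muscle against 38.5, 32.3 and 37.7 CPM in penis mesenchyme and 56.2, 54.3 and 26.3 CPM in penis pericytes. The groups did not overlap, and the change was 3.41 ± 0.12 from mesenchyme (adjusted p = 2.11e-14) and 3.07 ± 0.20 from pericytes (adjusted p = 1.46e-05). Lama5 was at 25.3, 25.7 and 40.6 CPM against 1.03 to 1.23 CPM in penis mesenchyme (log2 change 4.65 ± 0.35, adjusted p = 4.05e-09). Also higher than in mesenchyme were Itga7 (2.83 ± 0.27), Itga1 (2.10 ± 0.11), Itga6 (1.87 ± 0.16), Itgb8 (1.18 ± 0.24) and Lamc1 (1.04 ± 0.11). In all, 8 of 34 members were higher, against 2.33% of all genes, and 1 lower, Lamc3 (-1.51 ± 0.26), against 1.43% of all genes. The median of the members was 0.64 beside -0.04 over all genes. Against pericytes the sole other call was Itga1, lower by a log2 change of -1.22 ± 0.14. Thus 1 of 21 was higher and 1 lower, against 1.33% and 1.76% of all genes. Nephronectin itself, Npnt, was higher than in pericytes by 1.67, and the dystrophin gene Dmd by 2.24. The limbs had 15 and 8 smooth muscle cells and entered neither fit. Lamc1 lost its call without penis 3 (log2 change 0.92, adjusted p = 5.91e-11) and Itgb8 without penis 1 (log2 change 1.14, adjusted p = 0.0189). Against pericytes both calls needed penis 2. Itga8 lost its call without penis 2 (log2 change 3.01, adjusted p = 0.026) and Itga1 without penis 2 (log2 change -1.09, adjusted p = 0.073).

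Schwann cells, the glia of nerves, held laminin chains and laminin receptors at levels well above mesenchyme. Itga6 was at 789, 810.2 and 803 CPM in penis and 329 and 313 CPM in limb (log2 change 4.93 ± 0.33, adjusted p = 4.09e-05), and its partner Itgb4 at 139.6, 124 and 115 CPM and 40.9 and 27.5 CPM (log2 change 3.27 ± 0.23, adjusted p = 5.16e-05). Itgb8, a partner of Itgav that activates latent TGF-beta, was at 482, 466 and 474 CPM and 159 and 116 CPM against 8.82 to 12.7 CPM in mesenchyme (log2 change 4.88 ± 0.48, adjusted p = 2.39e-04). The nerve laminin chains were Lama2 at 1255, 1228 and 1303 CPM and 525 and 471 CPM, Lamb1 at 627, 649 and 708 CPM and 283 and 229 CPM, and Lamc1 at 481, 504 and 509 CPM and 265 and 257 CPM. Every Schwann library exceeded every mesenchyme library for all 6 genes, and in each the limb libraries lay below the penis ones. The log2 changes from mesenchyme were 1.81 ± 0.08 for Lama2, 1.89 ± 0.25 for Lamb1 and 2.30 ± 0.28 for Lamc1 (adjusted p at most 0.00103).

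Itga4, a receptor chain for fibronectin and Vcam1, was higher in Schwann cells by 4.23 ± 0.15, Itga2 by 3.24 ± 0.28, Itga1 by 2.28 ± 0.22 and Lama4 by 2.09 ± 0.09. In all, 11 of 34 members were higher and 6 lower, against 6.53% and 9.85% of all genes. The lower ones were Itgb5 (-1.59 ± 0.13), Itga9 (-2.36 ± 0.30), Itga5 (-2.51 ± 0.25), Itga11 (-2.84 ± 0.36), Lama3 (-2.93 ± 0.60) and Lamc3. No Schwann library had more than 4 UMIs of Itga11, 6 of Lama3 or 2 of Lamc3. The median of the members was 0.12 beside -0.07 over all genes. The dystroglycan gene Dag1, the other main laminin receptor of Schwann cells, was higher by 2.50, Dmd by 5.22 and the plakin Dst by 3.01. Of 16 basement membrane partners 7 were higher and 2 lower, and 7 of 16 other integrin ligands were lower with 0 higher, Fn1 among them (-3.40). The Schwann markers summed to 14917 to 15506 CPM in penis and 3044 to 3307 CPM in limb, so the cells gated at the 2 ages were unlike in marker level. Lamc3 lost its call without any 1 penis library (log2 change -4.53 to -4.34, adjusted p = 0.0317 to 0.0362) and Lama3 without any 1 penis library or the forelimb (log2 change -3.43 to -2.42, adjusted p = 0.0104 to 0.0447).

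**Figure D3:**
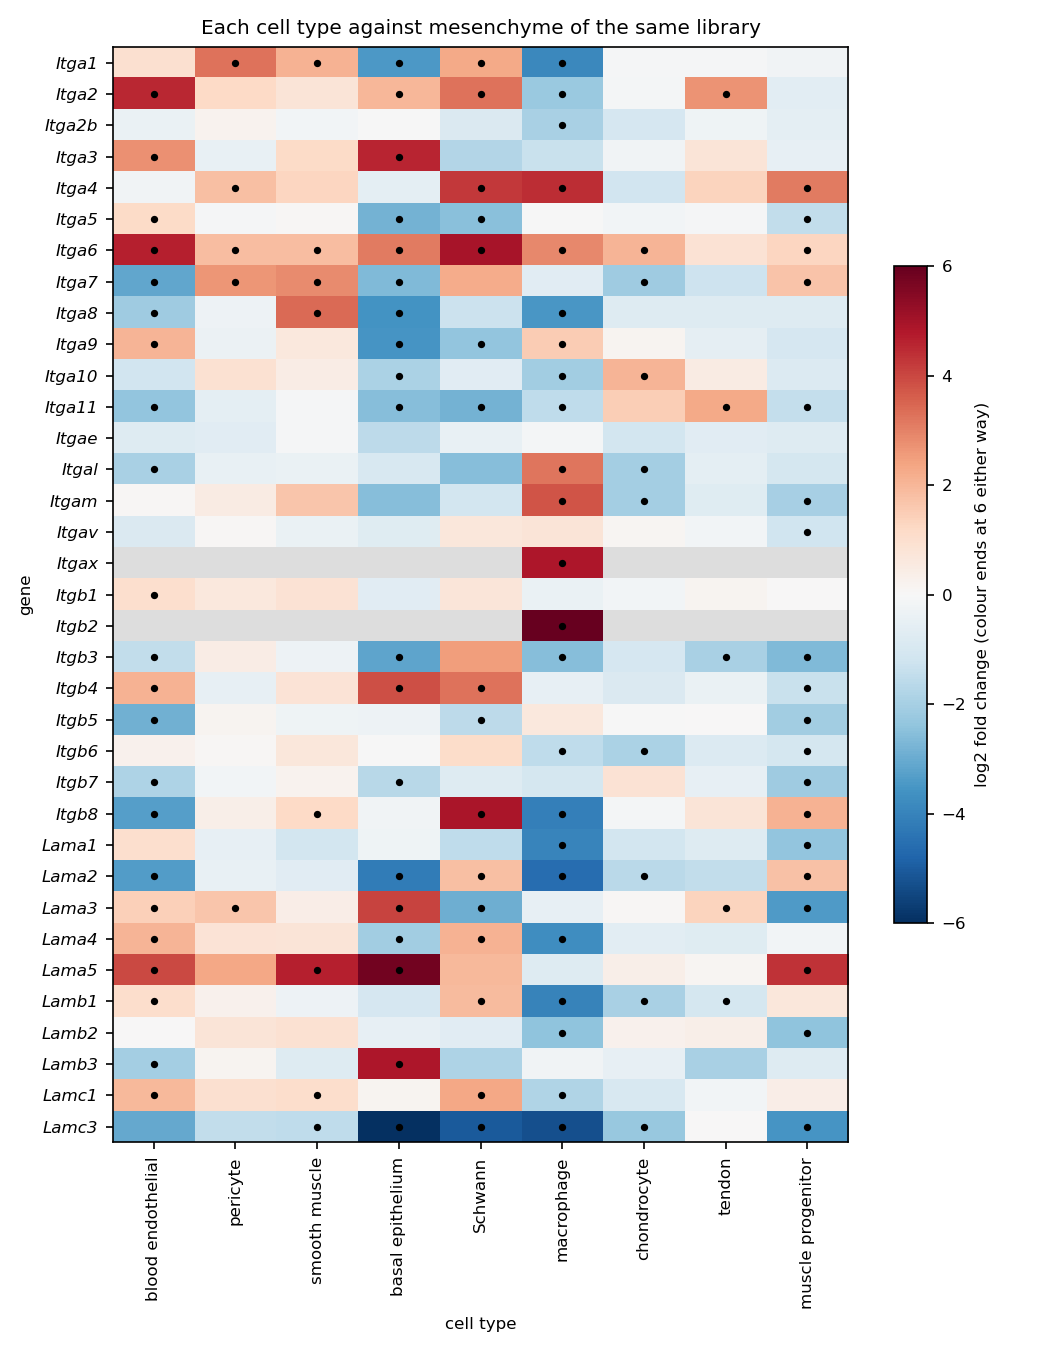
Log2 change from mesenchyme (colour, ending at 6 in either direction) of tested members (rows) in 9 cell types (columns), from edgeR, with a dot where the limits were passed and grey where a member was not tested. Red values reach 4.93 for Itga6 in Schwann cells, 5.81 for Lama5 in basal epithelium and 7.39 for Itgb2 in macrophages. Itgb2 was tested in macrophages alone, where its macrophage counts passed it through the expression filter.

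Macrophages had the leukocyte chains, and 7 of the 11 laminin chains were lower than in mesenchyme. Itgb2, the β chain found on white blood cells, was at 79.1, 62.0 and 95.8 CPM in penis and 31.7 and 25.6 CPM in limb (log2 change 7.39 ± 0.30). Of the fits against mesenchyme, only this one tested Itgb2 and Itgax. They passed its expression filter through their macrophage counts, so their calls as higher are no independent support. The partners of Itgb2 were Itgal at 69.0, 25.7 and 57.5 CPM and 31.7 and 24.9 CPM (log2 change 3.21 ± 0.26, adjusted p = 6.36e-06), Itgam at 128, 95.2 and 172 CPM and 74.6 and 78.0 CPM (log2 change 3.78 ± 0.87, adjusted p = 0.00427) and Itgax at 12.9, 7.56 and 10.6 CPM and 1.26 and 2.44 CPM (log2 change 4.87 ± 1.06). All 5 macrophage libraries were above all mesenchyme libraries for each of these 4 chains. Itga4 was higher by 4.44 ± 0.32, Itga6 by 2.90 ± 0.12 and Itga9 by 1.52 ± 0.12, so 7 of 36 members were higher, against 13.6% of all genes. The 7 include Itgb2 and Itgax. A further 16 of 36 were lower, against 25.5% of all genes, among them 7 of the 11 laminin chains and no higher one. Lama2 changed by -4.56 ± 0.33, Lamb1 by -3.99 ± 0.23, Lama1 by -3.97 ± 0.66, Lama4 by -3.74 ± 0.17, Lamb2 by -2.43 ± 0.22 and Lamc1 by -1.81 ± 0.19. The Lama1 value rested on 0 macrophage UMIs in every library but the hindlimb, which had 4. Itgb8, below, had 0, 1 and 0 UMIs in penis macrophages and 1 and 4 in limb ones. Lamc3 had a mesenchyme to macrophage ratio of 80.7 (exact 95% interval 22.3 to 667), pooled over both tissues. Its mesenchyme mean was 31.1 CPM in penis and 3.21 CPM in limb. Macrophages had 0 UMIs in penis and a mean of 0.247 CPM in limb, so the pooled ratio holds for neither tissue alone. The 9 lower integrin chains included Itgb8 (-4.10 ± 0.44), Itga1 (-3.88 ± 0.31), Itga8 (-3.50 ± 0.25) and Itgb3 (-2.56 ± 0.48), and the others were Itga2, Itga10, Itga2b, Itgb6 and Itga11. The median over 36 members was -1.18 beside -0.32 over all genes.

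Fermt3, the kindlin of blood cells, was higher in macrophages by 5.50 and Parvg by 5.51, with 5 of 21 adaptors higher and 8 lower, and 14 of 16 basement membrane partners were lower, beside 13.6% of all genes higher and 25.5% lower. Without a library in turn, 17 of the 23 calls in macrophages held. Itgb6 lost its call without either limb (log2 change -1.73 to -1.37, adjusted p = 0.0317 to 0.0635), Itga10 without penis 2 or 3 or either limb (log2 change -2.03 to -1.59, adjusted p = 0.0198 to 0.0408) and Itgam without any 1 penis library (log2 change 3.16 to 3.34, adjusted p = 0.0122 to 0.0188). Itgax lost it too without penis 1 (log2 change 4.06, adjusted p = 0.0147), Itga11 without penis 2 or 3 or the hindlimb (log2 change -1.56 to -1.30, adjusted p = 0.014 to 0.0251) and Itgb3 without the forelimb (log2 change -2.10, adjusted p = 0.0113).

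Other leukocytes were described without a test because a library or a tissue had too few cells. Penis lymphoid cells (21 to 29 a library) had Itgae, the α chain of tissue-resident lymphocytes, at 60.1, 196 and 225 CPM and its partner Itgb7 at 264, 261 and 218 CPM. The same cells had Itgal at 180.2, 209.8 and 199.7 CPM. These penis means were the highest of the 11 types for all 3 chains. Limb mast cells (569 and 535 cells) had Itga9 at 457 and 452 CPM, Itga4 at 371 and 359.6 CPM and Itgb7 at 79.4 and 71.7 CPM. In limb these were the highest means for these 3 genes among the types with at least 20 cells per library.

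**Figure D4:**
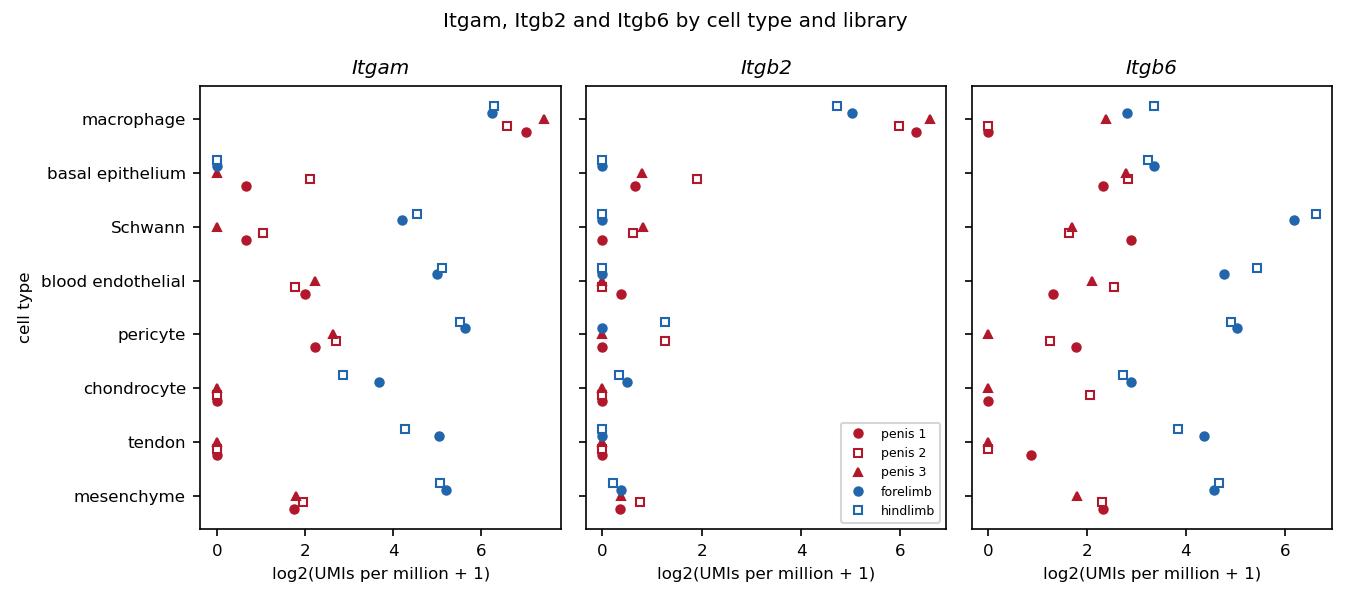
Levels of Itgam, Itgb2 and Itgb6, as log2(CPM + 1), in 8 cell types with 1 point per library. Itgam and Itgb2 are both high in macrophages, and Itgam and Itgb6 are also counted in limb mesenchyme, endothelium, pericytes, Schwann cells and tendon, where Itgb2 is at or near 0.

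In the limb Itgam was also counted outside the leukocytes. Limb mesenchyme had 36.1 and 32.5 CPM of Itgam (2002 and 1874 UMIs) against 2.38, 2.86 and 2.46 CPM in penis (log2 change -3.76 ± 0.10, adjusted p = 4.40e-09, penis relative to limb). Itgb2, without which the protein does not reach the surface, had 16 and 9 UMIs in the same limb cells. Itgam UMIs per Itgb2 UMI were thus 125 and 208 in limb mesenchyme but 2.36 and 3.05 in limb macrophages and 1.54 to 1.80 in penis macrophages. Macrophage markers summed to 22.5 to 27.4 CPM in limb mesenchyme and 11783 to 12367 CPM in limb macrophages. Limb blood endothelium had 31.2 and 33.8 CPM of Itgam with 0 Itgb2 UMIs in both libraries, and limb Schwann cells 17.4 and 22.4 CPM with 0. Limb tendon had 80 and 49 Itgam UMIs and 0 Itgb2 UMIs. No other annotated gene overlaps Itgam on either strand, and the source of these UMIs was not tested.

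Itgb6, the epithelial β partner of Itgav, had a like spread over limb types. It was at 22.8 and 24.5 CPM in limb mesenchyme against 4.00, 3.91 and 2.46 CPM in penis mesenchyme (log2 change -2.77 ± 0.15, adjusted p = 2.44e-07), and at 71.6 and 97.7 CPM in limb Schwann cells against 6.43, 2.10 and 2.26 CPM in penis. Limb basal epithelium had less, 9.21 and 8.46 CPM. The highest limb level was in muscle fibres, at 83.1 and 138 CPM. Itgb6 was lower in penis than in limb in mesenchyme, blood endothelium, pericytes, Schwann cells and tendon, 5 of the 6 types in which it was tested. The source of the Itgb6 UMIs outside the epithelium, in muscle fibres too, was not tested.

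Chondrocytes, the cells of cartilage, had Itga10, the chain known for them, and Itga6 above mesenchyme by like amounts. Itga10, a collagen II receptor chain, was at 31.5, 60.4 and 57.6 CPM in penis and 41.5 and 38.9 CPM in limb, against 9.48 to 12.0 CPM in mesenchyme (log2 change 2.02 ± 0.17, adjusted p = 2.37e-04). Itga6 was at 115, 103 and 113 CPM and 47.7 and 54.5 CPM (log2 change 2.02 ± 0.22, adjusted p = 8.12e-04). Neither overlapped mesenchyme. These were the 2 of 34 members higher, against 1.85% of all genes, and 7 were lower, against 4.11% of all genes. Lamb1 differed by -1.93 ± 0.11 and Lama2 by -1.64 ± 0.09, followed by Lamc3, Itga7, Itgal, Itgam and Itgb6. Penis chondrocytes had 0 UMIs of Itgam and Itga7 in each library, 1, 0 and 1 of Itgal and 0, 2 and 0 of Itgb6. The penis floors were 5.56, 4.76 and 7.86 CPM. Penis mesenchyme means were 2.57 CPM for Itgam, 3.98 for Itga7, 3.46 for Itgb6 and 4.90 for Itgal. For the first 3 of these no penis library alone could show a difference. Over the members the median was -0.57, beside -0.05 over all genes. Only 26 to 41 cells per penis library passed the gate, their chondrocyte markers summed to 4282 to 6815 CPM against 17779 to 19991 CPM in limb, and a stricter gate called 15 members, 3 higher and 12 lower. Lamc3 lost its call without any 1 penis library or the hindlimb (log2 change -2.29 to -2.00, adjusted p = 0.0107 to 0.016), Itgb6 without either limb (log2 change -1.96 to -1.75, adjusted p = 0.0464 to 0.0713) and Itgal without any 1 penis library or either limb (log2 change -2.23 to -1.83, adjusted p = 0.0105 to 0.0834). Itgam lost it too without either limb (log2 change -2.54 to -1.86, adjusted p = 0.0117 to 0.0434) and Itga7 without any 1 penis library or either limb (log2 change -2.87 to -1.99, adjusted p = 0.0145 to 0.0802).

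Tendon cells differed from mesenchyme in 5 of 34 members, the collagen receptor chains Itga2 and Itga11 among those higher. Itga2 was at 62.8, 89.8 and 77.9 CPM in penis and 26.1 and 14.9 CPM in limb (log2 change 2.72 ± 0.13, adjusted p = 1.19e-05), each tissue above its own mesenchyme. Itga11, which binds fibrillar collagen, was at 28.5, 28.6 and 39.5 CPM and 48.6 and 52.7 CPM (log2 change 2.28 ± 0.14, adjusted p = 3.98e-05). Lama3 was higher by 1.33 ± 0.17, and Lamb1 and Itgb3 differed by -1.06 ± 0.14 and -1.94 ± 0.32, so 3 of 34 members were higher and 2 lower, against 1.32% and 1.89% of all genes. The median of the members was -0.17 beside -0.04 over all genes. Itgb3 lost its call without any 1 penis library or either limb (log2 change -2.15 to -1.64, adjusted p = 0.0107 to 0.0255), Lamb1 without penis 2 or 3 (log2 change -1.04 to -0.93, adjusted p = 0.00286 to 0.0128) and Lama3 without any 1 penis library (log2 change 1.23 to 1.27, adjusted p = 0.0101 to 0.0127).

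Limb muscle progenitors differed from mesenchyme in 19 of 34 members, 6 higher and 13 lower. Muscle progenitors had Lama5 at 42.1 and 38.7 CPM against 2.80 and 2.14 CPM in mesenchyme (log2 change 4.32 ± 0.17, adjusted p = 1.21e-08) and Itga7, the muscle laminin receptor chain, at 26.8 and 18.9 CPM (log2 change 1.70 ± 0.17, adjusted p = 1.24e-05). Itga4 (3.13 ± 0.21), Itgb8 (2.09 ± 0.12), Lama2 (1.77 ± 0.07) and Itga6 (1.27 ± 0.11) were also higher, 6 of 34 members against 8.0% of all genes. The 13 lower members, against 15.3% of all genes, included Lamb2 (-2.40 ± 0.16), Itgb3 (-2.66 ± 0.37), Lama1 (-2.37 ± 0.36) and Itgb5 (-2.09 ± 0.12), then Itgb7, Itgam, Itga5, Itga11, Itgb4, Itgav and Itgb6. Mesenchyme to progenitor ratios of 14.5 (exact 95% interval 3.99 to 120.3) for Lamc3 and 13.0 (exact 95% interval 3.58 to 108) for Lama3 each rested on 2 UMIs in the progenitors. Their median was -0.77 over the 34 members, beside -0.14 over all genes. Bcam was higher by 3.65, Dmd by 2.22 and Dag1 by 1.91.

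From progenitor to fibre, Itgb6 went from 11.5 and 7.31 CPM through 33.4 and 34.3 CPM in myoblasts to 83.1 and 138 CPM in fibres (log2 change 3.82 ± 0.24, adjusted p = 3.32e-07). Itga6 went from 35.6 and 42.0 CPM through 60.8 and 68.0 to 101 and 129.7 CPM (log2 change 1.85 ± 0.11, adjusted p = 3.07e-07), and Itga11 differed by 2.31 ± 0.38. Itgb8 went the other way, from 32.9 and 48.0 CPM to a mean of 1.82 CPM in fibres (log2 change -4.16 ± 0.29, adjusted p = 7.59e-07). Itga1 (-2.32 ± 0.37), Itga8 (-2.28 ± 0.26) and the laminin chains Lama4 (-2.21 ± 0.21), Lamc1 (-1.81 ± 0.18) and Lamb1 (-1.65 ± 0.12) were lower too. So 3 of 24 members were higher and 6 lower in fibres, against 11.2% and 11.4% of all genes. Lama2, known as the laminin chain of mature fibres, was at 430.1 and 413 CPM in progenitors and 284 and 394 CPM in fibres and missed the limits (log2 change -0.05 ± 0.12, adjusted p = 0.737). Nephronectin, Npnt, was higher in fibres by 3.70. With 2 libraries per stage no library could be left out of the muscle comparisons.

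Between the tissues, mesenchyme differed in 12 of 36 members, 4 higher and 8 lower in penis, and of the 11 laminin chains 3 were higher and 3 lower. Lamc3 was at 32.2, 29.5 and 31.8 CPM in penis and 3.90 and 2.52 CPM in limb (log2 change 3.25 ± 0.15, adjusted p = 8.08e-08), and Lama3 at 16.9, 16.8 and 20.1 CPM and 3.01 and 2.73 CPM (log2 change 2.61 ± 0.11, adjusted p = 4.03e-08). Lama2 was at 358, 343 and 386 CPM and 172 and 131 CPM (log2 change 1.23 ± 0.11, adjusted p = 6.22e-06) and Itga2 at 12.4, 12.1 and 11.9 CPM and 3.93 and 2.81 CPM (log2 change 1.82 ± 0.14, adjusted p = 2.07e-06). These were the 4 of 36 members called higher in penis, against 12.6% of all genes. The tissues did not overlap for them, nor for some members that missed the limits. Itgb4 was one, at 10.2, 10.4 and 11.5 CPM in penis and 5.57 and 5.31 CPM in limb. The share of all genes without overlap was not counted. Lower in penis were 8 of 36, against 12.8% of all genes, among them Itgam and Itgb6 (above), Lama1 (-2.30 ± 0.15), an early embryonic α chain, Itga7 (-1.12 ± 0.10), Lama5 (-1.11 ± 0.19), Itga4 (-1.06 ± 0.19) and Itgax. Itgax rested on 3 UMIs in penis and 39 in limb, a limb to penis ratio of 11.5 (exact 95% interval 3.66 to 58.2). Itgb1 and Itgav had log2 changes of 0.21 ± 0.06 and -0.22 ± 0.06. Epithelium markers in mesenchyme summed to 107 to 124 CPM in penis and 44.0 to 49.2 CPM in limb, and their part in the Lama3 level was not tested. The epithelial chain Lamb3 was at 1.86, 1.65 and 2.05 CPM in penis and 3.61 and 1.79 CPM in limb mesenchyme. Of 17 basement membrane partners 6 were higher in penis mesenchyme and 0 lower, led by Col15a1 (5.84), Col4a6 (5.64) and Col4a5 (3.26), and Npnt was higher by 2.90. Itga4 lost its call without penis 1 or the hindlimb (log2 change -0.90 to -0.87, adjusted p = 3.03e-04 to 0.00261) and Lama5 without the forelimb (log2 change -0.90, adjusted p = 0.00184).

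**Figure D5:**
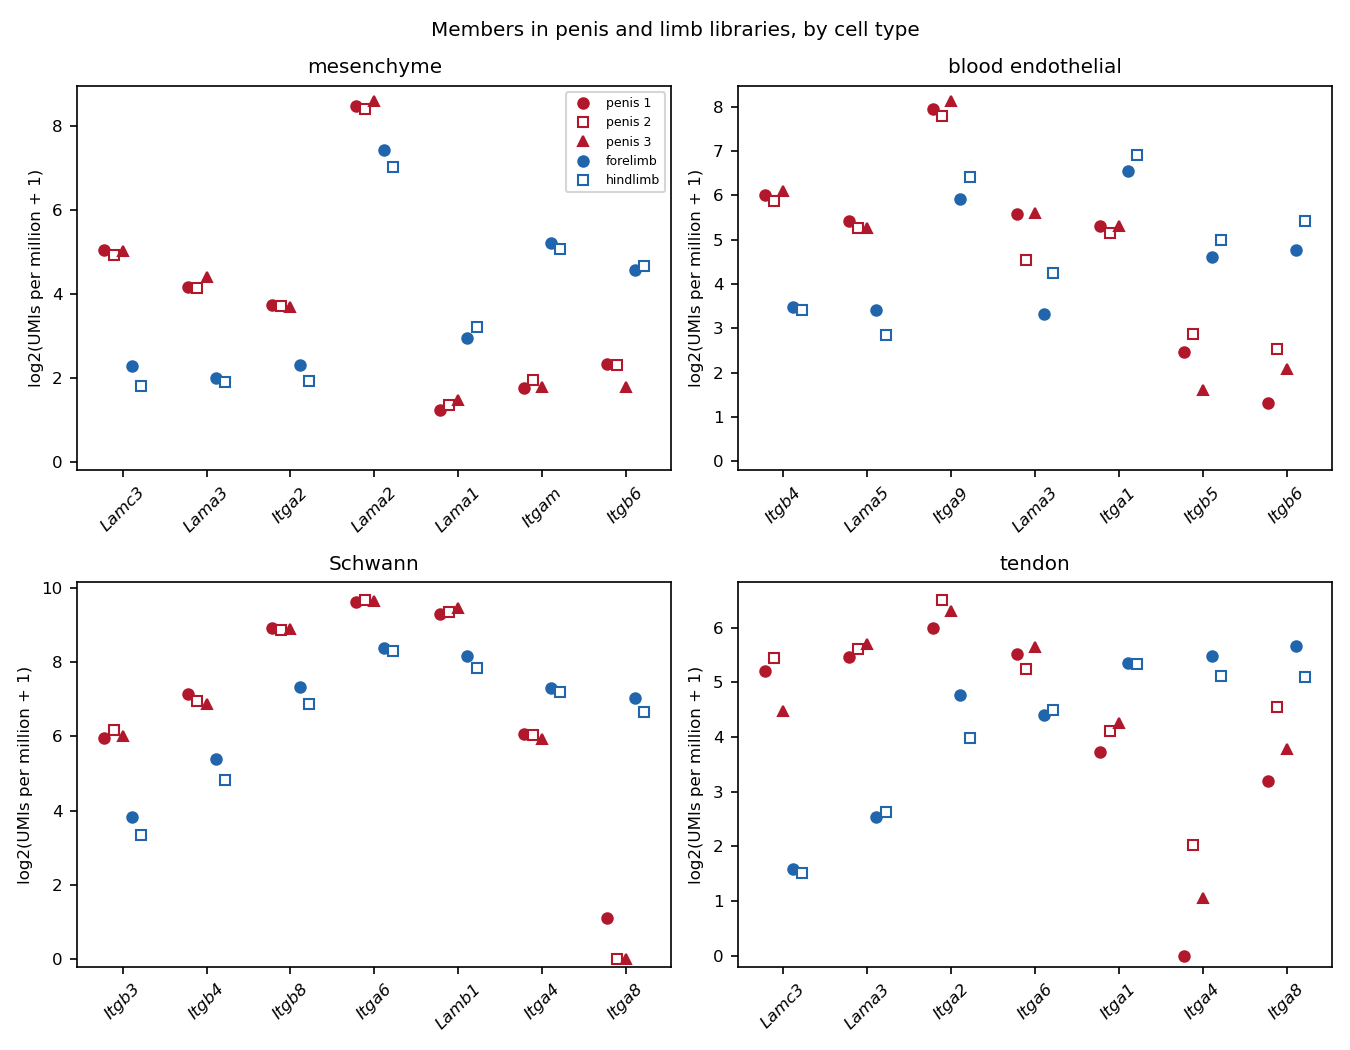
Levels as log2(CPM + 1) of 7 members in each of mesenchyme, blood endothelium, Schwann cells and tendon, with 1 point per library. Penis points lie above limb points for Lamc3 in mesenchyme and tendon, and below them for Itgb6 in mesenchyme and Itga8 in Schwann cells.

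Blood endothelium of the 2 tissues differed in 9 of 25 tested members, 4 higher and 5 lower in penis. In blood endothelium Itgb4 was at 63.0, 57.9 and 67.8 CPM in penis and 10.2 and 9.67 CPM in limb (log2 change 2.58 ± 0.20, adjusted p = 2.27e-08), Lama5 at 42.0, 37.5 and 37.6 CPM and 9.60 and 6.22 CPM (log2 change 2.21 ± 0.23, adjusted p = 1.06e-06) and Itga9 at 248, 219 and 279 CPM and 59.4 and 84.9 CPM (log2 change 1.72 ± 0.14, adjusted p = 3.10e-08). With Lama3 (1.46 ± 0.35) these were the 4 of 25 higher in penis, against 6.81% of all genes. Lower in penis were 5 of 25, against 4.60% of all genes, among them Itgam (-3.50 ± 0.27), Itgb6 (-3.46 ± 0.34), Itgb5 (-2.66 ± 0.32) and Itga1 (-1.57 ± 0.14). Bcam, which binds laminin α5, was higher in penis endothelium by 2.22. Itga6, the partner of Itgb4, missed the limits there (log2 change 0.05 ± 0.09, adjusted p = 0.73). Without each library in turn, 7 of the 9 calls held. Lama3 lost its call without the forelimb (log2 change 1.03, adjusted p = 0.0837).

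In pericytes Itga1 (1.11 ± 0.20), Lama3 (1.89 ± 0.37) and Lama5 (3.04 ± 0.59) were higher in penis, 3 of 24 members against 5.67% of all genes. Itga5 (-1.01 ± 0.19), Itgam (-3.30 ± 0.33) and Itgb6 were lower, 3 of 24 against 4.18% of all genes, Itgb6 with 3 UMIs in penis against 86 in limb and a limb to penis ratio of 21.4 (exact 95% interval 7.09 to 106). The pericyte markers summed to 3043 to 4090.4 CPM in penis pericytes and 947 to 1091 CPM in limb pericytes. The collagen IV chains Col4a5 and Col4a6 were higher in penis pericytes by 3.98 and 4.03, 2 of 7 higher basement membrane partners among 14. Lama5 lost its call without either limb (log2 change 2.82 to 3.27, adjusted p = 0.0432 to 0.0565), Itga1 without penis 2 or 3 or the forelimb (log2 change 0.89 to 1.09, adjusted p = 0.00591 to 0.0436) and Itga5 without penis 1 or 2 or either limb (log2 change -1.12 to -0.90, adjusted p = 0.011 to 0.0308). Lama3 lost it too without penis 2 or the forelimb (log2 change 1.39 to 1.70, adjusted p = 0.0231 to 0.0304).

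In basal epithelium the laminin chains Lama3 and Lamb3 were higher in penis than in limb, by 1.18 ± 0.19 and 1.43 ± 0.26 on the log2 scale. Their penis and limb libraries did not overlap. They were among the 3 of 20 members higher, against 4.75% of all genes. Itgb5 was the 1 lower, at 42.9, 27.6 and 31.8 CPM in penis and 133 and 121 CPM in limb (log2 change -1.75 ± 0.21, adjusted p = 4.37e-07), against 3.70% of all genes. The receptor chains Itga6 and Itgb4 had log2 changes of 0.19 ± 0.18 and 0.70 ± 0.19 and missed the limits (adjusted p = 0.533 and 0.00792). Col17a1 and the anchoring collagen Col7a1 were higher in penis by 1.06 and 1.22. Epithelium markers summed to 13104 to 14187 CPM in penis basal cells and 6831 to 7627 CPM in limb basal cells. Of the 4 calls, 3 held without each library in turn, those of Lama3, Lamb3 and Itgb5.

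In Schwann cells 8 of 25 members were higher in penis, against 8.74% of all genes, and 5 lower, against 7.63% of all genes. The higher ones were Itgb3, at 60.7, 71.5 and 63.3 CPM in penis and 13.3 and 9.16 CPM in limb (log2 change 2.57 ± 0.26, adjusted p = 3.34e-08), Itgb4 (1.92 ± 0.18), Itgb8 (1.82 ± 0.12), Itga7 (1.52 ± 0.29), Lamb1 (1.40 ± 0.11), Lama2 (1.37 ± 0.09), Itga6 (1.35 ± 0.09) and Lama5. Lama5 rested on 46 UMIs in penis and 1 in limb, a ratio of 18.3 (exact 95% interval 3.12 to 737). The largest gap in the other direction was that of Itga8, at 129.9 and 101 CPM in limb Schwann cells and at 2 UMIs in all penis Schwann cells, a limb to penis ratio of 285 (exact 95% interval 77.9 to 2365). Itga4 was at 65.4, 64.2 and 60.3 CPM in penis and 157 and 147 CPM in limb (log2 change -1.22 ± 0.13, adjusted p = 1.02e-07). Itgb6 (-4.47 ± 0.30), Itga9 (-1.62 ± 0.45) and Itgam, with a limb to penis ratio of 32.8 (exact 95% interval 10.4 to 166), were the other lower members. Dmd and Bcam were higher in penis Schwann cells by 2.52 and 3.20, and Fn1 was lower, with a log2 change of -2.92. Lama5 lost its call without the hindlimb (log2 change 3.12, adjusted p = 0.0418) and Itga9 without penis 3 or the forelimb (log2 change -1.43 to -0.93, adjusted p = 0.0215 to 0.355).

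Macrophages of the 2 tissues differed in 4 of 12 tested members. Itgb2 (log2 change 1.47 ± 0.19, adjusted p = 1.70e-05) and Itgb4 (log2 change 2.85 ± 0.57, adjusted p = 9.30e-04) were the 2 higher in penis, against 5.20% of all genes. Itgav was at 94.9, 87.6 and 87.3 CPM in penis and 177 and 215 CPM in limb (log2 change -1.08 ± 0.14, adjusted p = 1.33e-05), and with Lamc1 (-1.09 ± 0.28) made 2 lower, against 3.27% of all genes. Epithelium markers summed to 58.9 to 124 CPM in penis macrophages and 36.3 to 42.2 CPM in limb macrophages, and their part in the Itgb4 level was not tested. Lamc1 lost its call without penis 1 or 2 or either limb (log2 change -1.18 to -0.94, adjusted p = 0.0256 to 0.0853), Itgav without the hindlimb (log2 change -0.97, adjusted p = 0.00372) and Itgb4 without either limb (log2 change 2.67 to 2.99, adjusted p = 0.123 to 0.141).

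In chondrocytes Lama2 (1.52 ± 0.17), Itga11 (1.22 ± 0.24) and Itga6 (1.09 ± 0.15) were higher in penis, 3 of 16 members against 8.54% of all genes. Lama4 (-1.28 ± 0.24) and Itga9 (-1.63 ± 0.28) were lower, 2 of 16 against 5.63% of all genes. Itga10 missed the limits, with 49.8 ± 15.9 CPM in penis (n = 3) and 40.2 ± 1.85 CPM in limb (n = 2) (adjusted p = 0.352). Itga6 lost its call without penis 1 (log2 change 1.00, adjusted p = 0.00277), Itga11 without penis 1 or 2 or either limb (log2 change 1.05 to 1.39, adjusted p = 0.0141 to 0.0414) and Lama4 without penis 1 (log2 change -1.21, adjusted p = 0.0149).

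Tendon cells had Lamc3 at 35.9, 42.9 and 21.3 CPM in penis and 2.01 and 1.86 CPM in limb (log2 change 4.19 ± 0.40, adjusted p = 6.29e-07) and Lama3 at 43.2, 48.0 and 51.2 CPM and 4.82 and 5.20 CPM (log2 change 3.33 ± 0.26, adjusted p = 5.35e-08). With Itga2 (2.02 ± 0.24) and Itga6 (1.18 ± 0.21) they made 4 of 23 higher in penis, against 7.66% of all genes. Itga4 was at 0, 3.06 and 1.07 CPM in penis and 43.8 and 33.8 CPM in limb (log2 change -4.73 ± 0.47, adjusted p = 9.27e-07). Itga8 (-1.44 ± 0.31), Itga1 (-1.25 ± 0.23), Lama2 (-1.13 ± 0.16), Itgb6 and Itgam were lower as well, 6 of 23 against 5.45% of all genes. Itgb6 had 1 UMI in penis and 85 in limb, a limb to penis ratio of 51.6 (exact 95% interval 9.01 to 2061), and Itgam, with 0 UMIs in penis and 129 in limb, was at least 26.1-fold higher in limb against a floor of 3 UMIs over the penis libraries. Lama2 thus stood opposite to mesenchyme, where it was higher in penis. Npnt was higher in penis tendon by 4.07. Itga8 lost its call without penis 1 or the forelimb (log2 change -1.12 to -1.11, adjusted p = 0.013 to 0.026) and Lama2 without penis 3 (log2 change -0.99, adjusted p = 2.16e-04).

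The difference from mesenchyme was itself compared between the tissues for 7 types, and 51 such differences of members passed the limits. Blood endothelium had 10, against 8.02% of all genes in either direction, pericytes 4, against 2.19%, and basal epithelium 7, against 6.53%. Schwann cells had 15, against 10.9%, macrophages 6, against 7.70%, chondrocytes 5, against 6.66%, and tendon 4, against 5.22%. In blood endothelium Lama5 stood above mesenchyme by more in penis than in limb, with means of 4.22 in penis and 1.36 in limb on the log2(CPM + 1) scale (difference 3.42 ± 0.33, adjusted p = 1.69e-06), and so did Itga9 (2.15 ± 0.13, adjusted p = 9.61e-09) and Itgb4 (1.71 ± 0.24, adjusted p = 8.78e-05). Itga2 went the other way in the same cells (-2.30 ± 0.16, adjusted p = 5.07e-08), since penis mesenchyme had more of it and penis endothelium less. In basal epithelium Lamb3 (2.03 ± 0.39, adjusted p = 2.51e-05) differed by more in penis, and Lama3 by less (-1.40 ± 0.23, adjusted p = 7.11e-07), its mesenchyme level being higher in penis. In Schwann cells Itgb8 (2.16 ± 0.14, adjusted p = 4.13e-16) and Itga6 (1.51 ± 0.11, adjusted p = 6.47e-15) exceeded mesenchyme by more in penis. Itga8 lay on opposite sides of mesenchyme in the 2 tissues. Limb Schwann cells had 129.9 and 101 CPM against 57.4 and 54.1 CPM in mesenchyme. Penis Schwann cells had 1.17, 0 and 0 CPM against 38.5, 32.3 and 37.7 CPM. In macrophages the Itgam difference was 4.38 ± 0.21, adjusted p = 7.53e-20, with means of 5.22 in penis and 1.13 in limb above mesenchyme. Its reference in limb is the mesenchyme level of Itgam given above, whose source was not tested.

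Partners were compared over types as a description, since the types of a tissue share libraries. On log2(CPM + 1) means, Lamb1 and Lamc1 had Pearson r = 0.962 over the 11 penis types and 0.817 over the 15 limb types, and Lama4 and Lamc1 0.916 and 0.875. Not every pair varied together. Lama5 and Lamc1 had 0.590 and -0.337, and Lama2 and Lamc1 0.6875 and 0.283. Itga2b and Itgb3 had -0.560 and 0.3685, and Itga4 and Itgb7 0.346 and 1.61e-04. Itgal and Itgb2 had 0.907 and 0.839. Itgam and Itgb2 had only 0.399 in penis and 0.218 in limb, where Itgam was counted in types without Itgb2. Itga6 and Itgb4 had 0.682 in penis and 0.303 in limb.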

How the data were processed

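The data were single-cell RNA libraries of mouse penis (3) and embryonic forelimb and hindlimb (1 each), made with the 10x Genomics 3′ v3.1 kit. The authors counted UMIs with Cell Ranger 7.0.0 against mm10 and deposited raw UMI counts per gene and barcode for 32285 genes. Whether introns were counted is not given in the sources used here. No deposited column was left unmapped.

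Barcodes were kept with the limits of the study's methods, read as genes per cell: 500 to 6000 genes and at most 5% mitochondrial counts in penis, 100 to 9000 (forelimb) or 9500 (hindlimb) genes and at most 10% in limb, and log10 genes per log10 UMI of at least 0.8. Kept UMIs were 68417925, 68127411 and 51529854 in penis, 142718533 in forelimb and 148752710 in hindlimb. A cell was given a type when it had enough detected markers of 1 list (such as 5 of 8 for endothelium or macrophages, 7 of 11 for chondrocytes). Pericytes also needed a UMI of Rgs5 or Kcnj8, and smooth muscle cells a UMI of Myh11. Mesenchyme cells, the reference of most comparisons, had to be more than 1 marker short of every other main list and to meet no muscle list. The reference thus left out cells near another type, and the effect on the differences from mesenchyme was not tested. Cells that met several lists were left out, which was the treatment of doublets, and no doublet caller was run. Tendon, chondrocyte, osteoblast, pericyte and smooth muscle cells could also meet the mesenchyme list. Epithelial cells under 10 suprabasal UMIs per 10000 and with a UMI of Krt5 or Krt14 were called basal, and those with at least 20 suprabasal. A cell without these markers may still be a member of the type.

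Counts were summed per library and type (at least 20 cells) and tested with edgeR 4.0.16 (R 4.3.3, limma 3.58.1): TMM, filterByExpr, quasi-likelihood test, Benjamini-Hochberg over all genes tested. Calls needed an adjusted p under 0.01 and a log2 change above 1 or below -1. Every adjusted p in the text is from edgeR, and each SE is derived from its test. Types of the same library were compared with the library as a block, since they come from the same animals. Penis and limb were compared as 3 against 2 libraries without a block, and forelimb and hindlimb, body regions that may share embryos, were treated as replicates of limb. Exact intervals of ratios are at the 95% level, and a count of 0 was bounded with 3 UMIs. They cover counting error only. Where a member had only a few UMIs in a type, its fitted change depends on the prior count and is no measured size. Counts were also simulated with a dispersion of 0.02, which was assumed and not estimated from these data. On them edgeR recovered 100% of changes of log2 size 2 and of size 3, with 0 false calls. This covered 7652 genes in the basal against suprabasal comparison and 19268 genes in mesenchyme of penis against limb. Changes nearer the limit of 1 were not simulated, so the recovery of calls of that size is not known. Alternatives were DESeq2 1.42.0, RLE size factors, no expression filter, all barcodes, stricter gates, no library block and leaving out each library.

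Counts are over the members that passed the expression filter of each fit. Results of 1 member are not reported here by name, though it is in the counts where it was tested, and the text names those past the limits with their known partners, and at most 4 genes of each pathway list. The members and lists were chosen with earlier results of these data known. Promoter sequences are from RefSeq (GRCm38.p6), and gene positions from GENCODE vM21.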

Additional observations from a re-analysis of the deposited data

Results flagged for a closer look

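The difference between a cell type and mesenchyme was tested for a difference between penis and limb (edgeR interaction, library as a block). Values are penis minus limb on the log2 scale, for members that also differed from mesenchyme. No cause was tested for any of them.

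In blood endothelium the difference was larger in penis for Lama5 (3.42), Itga9 (2.15) and Itgb4 (1.71). Itga8 (1.50) was below mesenchyme by less in penis. It was smaller or more negative for Itgb5 (-2.47), Itga2 (-2.30) and Lama2 (-1.60). Itgb5 and Itga8 are chains of receptors for vitronectin and nephronectin. In pericytes Itga7 had 2.28, with levels of 39.1, 61.2 and 47.3 CPM in penis and 14.4 and 29.3 CPM in limb.

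In basal epithelium the values were 2.03 for Lamb3, -1.75 for Itga2 and -1.40 for Lama3. Lama3 and Itga2 were both higher in penis than in limb mesenchyme, which is the reference of these differences.

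In Schwann cells positive values were found for Itgb8 (2.16), Itga6 (1.51), Lamc1 (1.42), Lamb1 (1.27) and Itgb4 (1.03), and negative ones for Itga2 (-1.26) and Itga1 (-1.01). Lamc3 had a fitted value of -11.7, which rests on penis Schwann libraries with 0 UMIs, depends on the prior count and is no bound.

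In macrophages Itgax had 5.70, Itgam 4.38 and Itga4 1.30, and Lama2 had -2.22. The Itgax value rests on 3 UMIs in penis mesenchyme, and that of Itgam on the Itgam UMIs of limb mesenchyme, whose source was not tested. In chondrocytes Itga6 had 1.09.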

How the results depend on the processing

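Over 807 single-member results, 7893 alternative values were computed. Of these, 7501 kept their side of the limits, 267 lost the call, 125 gained it and 0 were classed as reversed. These counts do not show whether results that missed the limits kept their sign. Without the replicate block, which here is the library, the number of called members went from 5 to 3 in pericytes, from 9 to 5 in chondrocytes, from 5 to 3 in tendon and from 3 to 0 between lymphatic and blood endothelium. Under a stricter gate it was 14 for smooth muscle (9 as reported), 15 for chondrocytes, 3 for tendon, 6 for lymphatic against blood endothelium and 4 for smooth muscle against pericytes (2 as reported). Without the filter on low counts the last 2 comparisons had 8 and 4. With all deposited barcodes, macrophages of penis against limb had 2 (4 as reported), basal against suprabasal epithelium 4 (7 as reported) and smooth muscle against pericytes 1. The cause was not tested for any of these. Leaving out 1 library gave 2 to 6 calls in pericytes, 4 to 6 in chondrocytes and 2 to 4 in tendon. Between penis and limb it gave 2 to 7 in pericytes, 1 to 6 in macrophages and 2 to 6 in chondrocytes, and between smooth muscle and pericytes 0 to 4, the 0 without penis 2. The tissue differences of type against mesenchyme numbered 40 to 48 (51 as reported).

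Among all genes called, the share higher moved with the block or the gate: in pericytes it was 69.3%, and 90.0% without the replicate block or 56.9% under the stricter gate. No paired analysis was possible between penis and limb because their libraries come from different animals. Not run were the stricter gate for chondrocytes and tendon of penis against limb, leaving out libraries in the muscle comparisons, and leaving out libraries that entered no such fit (penis 1 in the lymphatic comparison, the limbs in those of smooth muscle). Fits without a block were not run for the tissue differences, and those between penis and limb had no block to leave out. Penis chondrocytes and lymphoid cells had only 21 to 41 cells per library, which limits the precision of their levels.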

Other observations

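Dendritic and neutrophil cells entered no comparison because of their number. In neutrophils, 9 to 18 per library, Itgam was at 641, 653 and 427 CPM in penis and 369 and 456 CPM in limb, and Itgb2 at 281, 256 and 493 CPM and 221 and 228 CPM. Gated dendritic cells had Itga4 at 293, 163 and 176 CPM in penis and 437 and 431 CPM in limb, and Itgax at 40.0, 25.0 and 10.3 CPM and 21.8 and 50.3 CPM. Lamb3, a chain of the epithelial laminin, was counted in dendritic cells at 53.4, 93.8 and 31.0 CPM in penis and 21.8 and 7.19 CPM in limb. These rest on 12, 15 and 3 UMIs in penis and 2 and 1 in limb, the limb values lying below floors of 32.8 and 21.6 CPM. Penis lymphoid cells had Lamb3 at 16.0, 46.6 and 56.2 CPM. Neutrophils had 1, 2 and 2 UMIs of Lamb3 in penis and 7 and 1 in limb. Lama3, which joins it in that trimer, had 0 UMIs in the lymphoid cells of all 3 penis libraries. Lamb3 shares bases on its strand with 4930570N18Rik, whose part in these UMIs was not tested.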
